A study of Homo sapiens with 2 samples.

Results

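ERG-detected cells of RWPE-ERG-mAKT are cells of that line with 2 or more unique molecular identifiers (UMIs, each standing for 1 captured RNA molecule) of ERG (ENSG00000157554, chromosome 21, 38380027 to 38661780 in GRCh38). They were chosen by this count among barcodes with over 2500 detected genes and under 7.5% of UMIs in mitochondrial genes, and were compared with cells of the same library without an ERG UMI. The class held 890 of 14140 cells within these limits, out of 17355 barcodes of the library and 29859 of the series. A further 10761 cells had no ERG UMI and 2489 had 1. Since ERG chose the cells, it was left out of every ratio and total, and its own levels are a description. Cells without an ERG UMI may still carry ERG RNA that was not captured, so the comparison sets cells with more detected ERG against cells with less.

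The study compared RWPE1, an immortalized line of normal prostate epithelium labelled as the vector only control, with RWPE1 labelled ERG, mAKT. The latter carries retroviral ERG behind the HNRNPA2B1 promoter and myristoylated AKT1, a form of the kinase held at the membrane and constantly active, and was kept under drug selection for both vectors without a stated cloning step. Both lines grew in keratinocyte serum-free medium, and each gave 1 droplet library, with 237490385 UMIs for RWPE-ERG-mAKT and 217340524 for RWPE1. The UMIs do not separate vector-borne from chromosomal ERG or AKT1. With 1 library per condition there is no replicate of any difference below. No test was made, and the 95% intervals cover counting error only.

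ERG belongs to the ETS family of transcription factors, which bind DNA at sites with a GGAA core. It is made in endothelium and some blood cells but is silent in normal prostate epithelium, and the fusion of ERG to the androgen-driven TMPRSS2 promoter is a common lesion of prostate cancer. RWPE1 cells have a basal character: they make KRT5 and KRT14, the keratin pair of basal epithelium, together with KRT17, next to the simple keratins KRT8 and KRT18 that mark luminal cells.

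Most cells of the ERG line had no detected ERG, and how many had it followed sequencing depth. Over the cells within the limits ERG summed to 4680 UMIs, 20.8 CPM (counts per 1e6 UMIs; interval 20.2 to 21.4). A share of 17.6% of cells (exact binomial interval 17.0 to 18.2) had 1 ERG UMI and 6.29% (5.90 to 6.71) had 2 or more, of which 631 cells had 2, 163 had 3 and 96 had between 4 and 10. In RWPE1, the vector only control, 194 of 9967 cells had 1 ERG UMI and 37 had 2 or more (0.371%, interval 0.262 to 0.511), and the level was 1.44 CPM. The median cell of RWPE1 was deeper than that of RWPE-ERG-mAKT (16972 against 13601 UMIs), so each cell was also thinned to 5000 UMIs. ERG was then seen in 9.18% (8.71 to 9.66) of 14134 cells of RWPE-ERG-mAKT and in 0.863% (0.691 to 1.06) of 9967 cells of RWPE1, against 23.9% and 2.32% before thinning.

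Within RWPE-ERG-mAKT the share of cells with 2 or more ERG UMIs climbed with depth while the level of ERG did not. Over the 16 depth bins of 2000 UMIs that held at least 100 cells, the share ran from 1.29% to 22.9%, and the level stayed between 17.1 and 26.7 CPM. The ERG-detected cells were accordingly deep: their median was 20432.5 UMIs and 5126.5 genes, against 12695 UMIs and 3936 genes in cells without an ERG UMI. In all 16 bins the variance of ERG UMIs over cells was larger than their mean, by 1.10 to 2.01 times, where equal expression and counting error alone would give a ratio of 1. In RWPE1 the same ratio lay between 0.945 and 1.83 and was above 1 in 10 of the 15 bins with an ERG UMI.

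**Figure D1:**
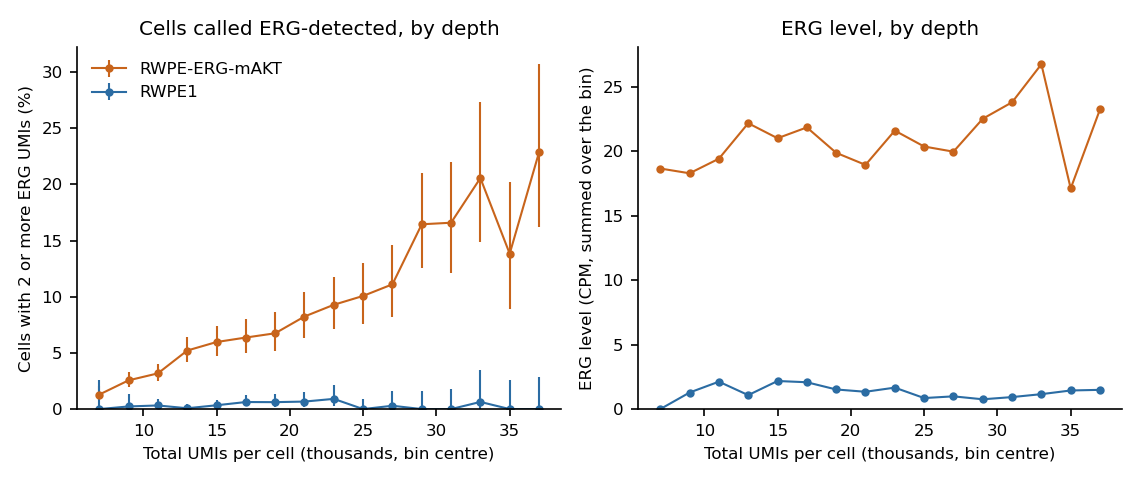
Left, percent of cells with 2 or more ERG UMIs in bins of 2000 total UMIs per cell (bins with at least 100 cells; bars are exact 95% binomial intervals); right, the summed ERG level of the same bins in CPM. In RWPE-ERG-mAKT the share runs from 1.29% to 22.9% with depth while the level stays between 17.1 and 26.7 CPM; RWPE1 lies at or below 2.18 CPM.

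Further comparisons of levels were therefore matched on depth unless stated otherwise. In each bin of 2000 UMIs the cells without an ERG UMI were weighted to the summed UMIs of the ERG-detected cells, which placed 886 of the 890 cells against 10759 cells in 25 bins. For each gene the level in both classes is given in CPM, with the log2 ratio of the levels, its direction in each of the 19 bins with 10 or more ERG-detected cells and, for some, the spread over cells. Close to the selection limits the class was thin: 5 of its cells lay within 250 genes above the gene limit and 5 cells with 2 or more ERG UMIs within 250 genes below it, while 1 lay within 0.5 percentage points under the mitochondrial limit and 2 within 0.5 above. The 2 libraries shared 55 barcode sequences, none of them on an ERG-detected cell.

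ERG-detected cells had less RNA of the keratins KRT14 and KRT17 and of several small, abundant, secreted or cytoplasmic proteins, and slightly more of many long genes. Of 6504 genes with 20 CPM or more in either class, 62 (0.953%) were higher and 31 (0.477%) lower by a log2 ratio of at least 0.32, the fold used below. Among these 6504 genes the differences were small, with no gene higher and 2 genes lower by 1.5-fold. Genes below 20 CPM in both classes were left out, and some of them differed more. Examples either way were SPRR2D (6.01 against 15.7 CPM, −1.39) and IVL (1.03 against 0.44 CPM, 1.22). The lower genes included some of the most abundant RNAs of the line, while none of the 62 higher genes passed 250 CPM. The median log2 ratio over all compared genes was 0.05, and 67.6% of genes lay above 0. With the 2 classes scaled on the median gene in place of total UMIs, the split between higher and lower genes turned to 21 and 53.

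**Figure D2:**
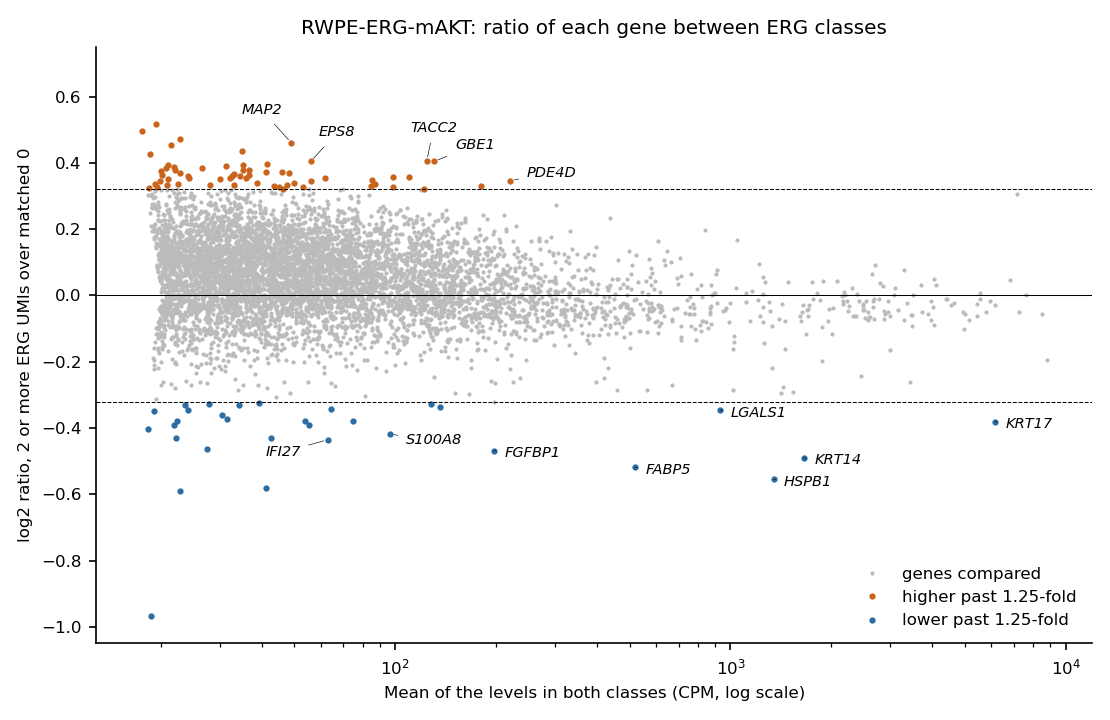
Each point is 1 of 6504 genes of RWPE-ERG-mAKT, with the mean of its levels in both classes in CPM on a log axis and the log2 ratio of ERG-detected over depth-matched cells without an ERG UMI. Dashed lines mark log2 ratios of 0.32 either way; the lower genes reach the level of KRT17, 5342 CPM, while the higher genes stay under 250 CPM.

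The keratins KRT14 and KRT17 were lower in ERG-detected cells at every depth compared. KRT14 (chromosome 17, 41582279 to 41586921), the keratin that pairs with KRT5 in basal epithelium, stood at 1377 CPM against 1935 CPM, a log2 ratio of −0.49 (−0.51 to −0.47). KRT17 (chromosome 17, 41619441 to 41624842), a keratin of basal and wounded epithelium, stood at 5342 against 6957 CPM, a ratio of −0.38 (−0.39 to −0.37). Each was lower in 19 of 19 depth bins, and KRT14 ran from 588 to 2505 CPM over the bins of ERG-detected cells and from 1185 to 3898 CPM in the matched cells. Cell by cell the classes overlapped widely. The median ERG-detected cell had 5.29 KRT14 UMIs per 10000 and the median matched cell 13.2, while the 90th percentiles were 45.3 and 55.9, so that the ratio of the classes was larger at the median than at the top of the distribution. For KRT17 the medians were 44.3 and 57.8 per 10000. KRT14, KRT16 and KRT17 are close paralogs with near-identical pseudogenes, and the counting may have divided reads among them.

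The other basal genes differed less. Of 14 compared genes on the basal list, KRT14 and KRT17 were lower past the fold, beside 0.477% of all genes, and none was higher. The list's median of −0.11 compares with 0.05 over all genes. KRT5 stood at 1740.2 against 1997 CPM (−0.20, −0.22 to −0.18) and was lower in 17 of 19 bins. TP63, the transcription factor that defines basal cells, differed by −0.08 (−0.18 to 0.02), an interval that includes 0, and KRT15 by 0.13 (0.03 to 0.23). Summed over the list, the basal genes took up 9949.9 CPM in ERG-detected cells and 12415.9 in matched ones.

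Squamous genes are those that keratinocytes turn on as they differentiate. Of 8 compared genes 2 were lower past the fold, beside 0.477% of all genes, SPRR1B (−0.58, −0.71 to −0.45) and S100A8 (−0.42, −0.50 to −0.34), and the list's median was −0.27, with 6 genes below 0. SPRR1B, a cross-linked protein of the cornified envelope, stood at 33.0 against 49.3 CPM. KRT16 and KRT6B, keratins of activated keratinocytes, lay just inside the fold at −0.30 each. KRT6A, a close paralog of KRT6B, was at 2251 against 2665 CPM (−0.24) and lower in 18 of 19 bins. S100A8, a calcium-binding alarmin of inflamed epithelium, was unstable: 1 cell supplied 12.6% of its UMIs in the class, it was lower in 10 of 19 bins, and its ratio turned to 0.49 without the deepest 5% of cells. Its partner S100A9 stood at 245 against 228 CPM (0.10, 0.06 to 0.15).

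HSPB1 (chromosome 7, 76302544 to 76304295), a small heat shock protein that chaperones unfolded proteins and intermediate filaments, had the lowest ratio of the 12 lower genes named by size, all at 50 CPM or more in either class. It stood at 1089 CPM against 1600.2 CPM (−0.56, −0.58 to −0.53) and was lower in 19 of 19 bins, with 866 to 1351 CPM over the bins of ERG-detected cells and 1362 to 2390 CPM in matched cells. The highest bin of the one class thus lay just below the lowest bin of the other. The median cell had 7.27 HSPB1 UMIs per 10000 against 11.8. Of 12 compared heat shock chaperones 1, HSPB1, was lower past the fold, beside 0.477% of all genes. The list's median was 0.04, or −0.01 when scaled on the median gene. HSPH1 and HSPD1, a cytosolic and a mitochondrial chaperone, stood at 0.19 and 0.10.

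The other lower genes chosen by size were diverse. FABP5, a fatty acid carrier with many processed copies in the genome that reads may be shared with, stood at 427 against 612 CPM (−0.52, −0.55 to −0.48) and was lower in 16 of 19 bins. FGFBP1 (chromosome 4, 15935569 to 15938740), a secreted protein that releases fibroblast growth factors from the matrix, stood at 165 against 229 CPM (−0.47, −0.52 to −0.41) and was lower in 19 of 19 bins. LGALS1, a galactoside-binding lectin, stood at 821 against 1044 CPM (−0.35) and was lower in 18 bins. IFI27, an interferon-induced mitochondrial protein, was at −0.44 and lower in 17 bins, NEFL, a neurofilament subunit, at −0.38 and SAA2, an acute phase protein nearly identical to SAA1, at −0.34, both lower in 15 bins. TIMP3, an inhibitor of matrix proteases, was at −0.39 in 13 bins. IGFL1, a secreted IGF-like protein, was at −0.38 but lower in only 10 bins, with 14.8% of its UMIs from 1 cell.

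**Figure D3:**
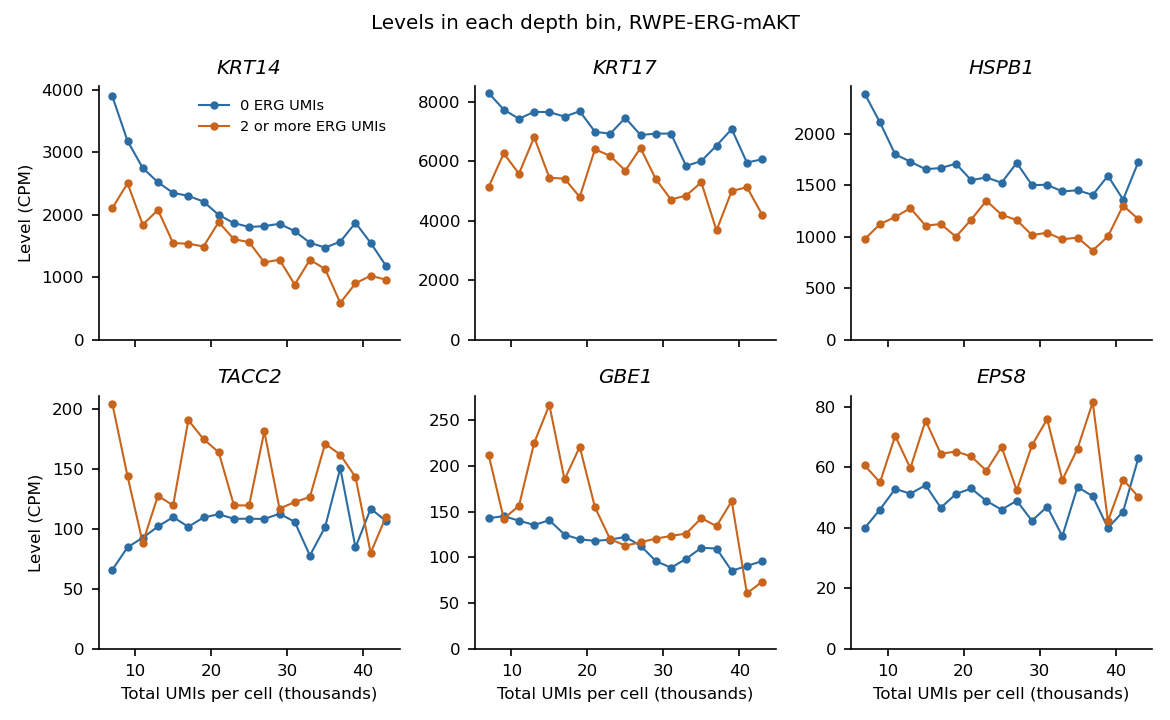
Level of 6 genes in CPM in each depth bin of 2000 UMIs with 10 or more ERG-detected cells, for cells with 2 or more ERG UMIs and cells with none in RWPE-ERG-mAKT. KRT14, KRT17 and HSPB1 are lower in ERG-detected cells in 19 of 19 bins; TACC2, GBE1 and EPS8 are higher in 17, 15 and 18.

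The higher genes were of low to moderate abundance and several encode cytoskeletal or signalling proteins. MAP2, a microtubule-associated protein best known from neurons, had the largest ratio among the named genes at 56.7 against 41.2 CPM (0.46, 0.36 to 0.56), but was higher in only 13 of 19 bins and was seen in 320 of 886 cells. TACC2 (chromosome 10, 121989174 to 122254545), a centrosome and spindle protein, stood at 142 against 107 CPM (0.41, 0.34 to 0.47) and was higher in 17 bins. EPS8 (chromosome 12, 15620158 to 15882329), an actin-capping adaptor of the EGF receptor, stood at 63.7 against 48.2 CPM (0.40, 0.31 to 0.50) and was higher in 18 bins. After thinning to 5000 UMIs, TACC2 was seen in 39.1% (35.9 to 42.4) of 890 ERG-detected cells and in 28.5% (27.7 to 29.4) of 10756 cells without an ERG UMI. These shares were not matched on depth bins. In cells without an ERG UMI TACC2 stood at 66.1 CPM in the bin of 6000 to 8000 UMIs and at 110 CPM at 14000 to 16000. The part of original depth in the gap was not tested. GBE1 (chromosome 3, 81489699 to 81762161), the enzyme that adds branches to glycogen, stood at 149 against 113 CPM (0.40, 0.34 to 0.46) and was higher in 15 bins.

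The remaining 8 higher named genes lay between 0.34 and 0.37. BMPR1B, a receptor of bone morphogenetic proteins, stood at 0.37 and GALNT13, which starts O-linked glycans, also at 0.37. SPIDR, a scaffold of DNA repair by recombination, was at 0.36 and the long noncoding RNA MIR924HG at 0.36. STK39, a kinase that regulates ion cotransporters, was at 0.35, PDE4D, which degrades cyclic AMP, at 0.35 and PITPNC1, a phosphatidylinositol transfer protein, at 0.34. CHML, a Rab escort protein, was at 0.35, and its neighbour OPN3 was past the fold as well (0.35). These 2 genes overlap in the annotation, so reads of one may have been counted for the other. STK39 and PDE4D stood at 0.31 and 0.32, under the fold, once the cell richest in each was left out.

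For 13 of the 24 genes named by size the ratio lay further from 0 with each step in ERG UMIs, and for 11 it did not. These genes were chosen for their ratio at 2 or more ERG UMIs and their direction with 1 or more. Larger ratios in the classes from 2 up than at 1 are thus partly built in. The share of all 6504 compared genes in such an order is not given here, so no effect of ERG dose can be read from it. The cells were divided into those with 1, 2, 3 and 4 or more ERG UMIs, each matched on depth to the same cells without one, so the 4 comparisons share their reference. For HSPB1 the log2 ratios in that order were −0.20, −0.43, −0.69 and −1.12. For KRT14 they were −0.14, −0.32, −0.85 and −1.21, and in the top class of 95 matched cells KRT14 stood at 740 against 1709.8 CPM. KRT17 gave −0.10, −0.27, −0.47 and −0.96, and FABP5 gave −0.18, −0.35, −0.59 and −1.41. On the other side TACC2 gave 0.13, 0.33, 0.33 and 0.81, and MIR924HG gave 0.18, 0.24, 0.50 and 0.73. Of the 11 genes out of order, GBE1 gave 0.19, 0.43, 0.46 and 0.16, and S100A8 gave −0.31, −0.28, −0.09 and −3.14. The others were MAP2, EPS8, STK39, PDE4D, PITPNC1, IFI27, TIMP3, IGFL1 and SAA2. Cells with more ERG UMIs were also deeper, from a median of 16438 UMIs at 1 to 24895 at 4 or more, and the matching reaches only as far as the 2000-UMI bins.

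**Figure D4:**
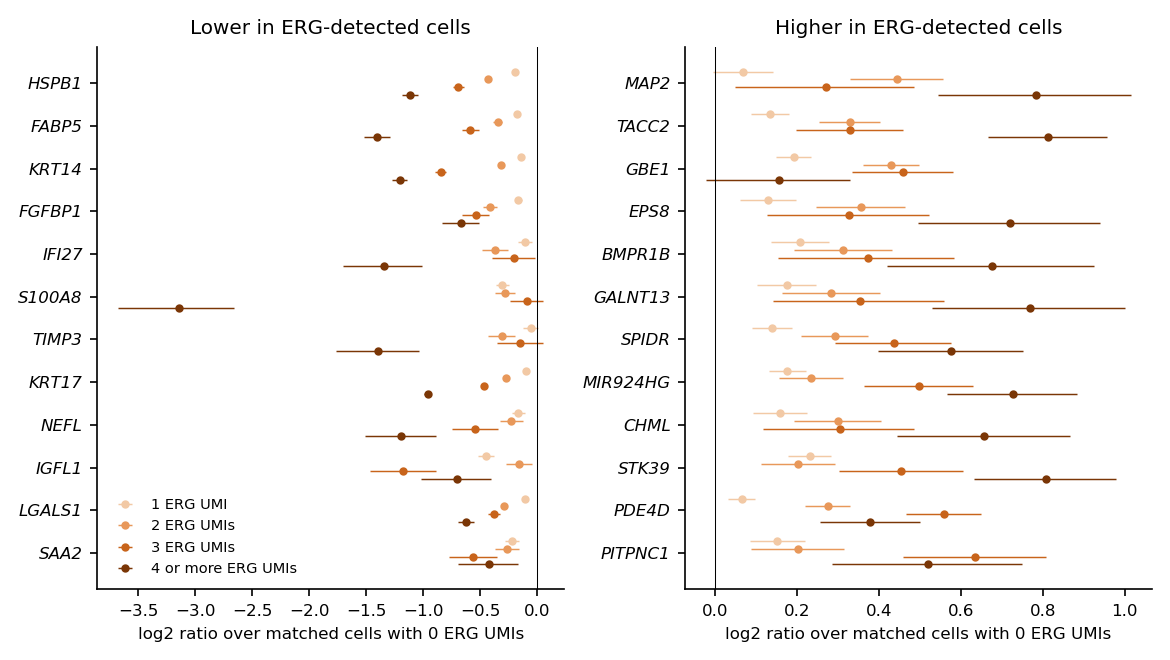
log2 ratio of the 12 lower (left) and 12 higher (right) named genes in cells with 1, 2, 3 and 4 or more ERG UMIs over depth-matched cells without one; bars are 95% intervals for counting error. In 13 genes, HSPB1, KRT14, KRT17 and FABP5 among them, the ratio lies further from 0 with each step, and in 11, such as GBE1, PDE4D and S100A8, it does not. The genes were chosen on cells with 2 or more ERG UMIs, so part of the order is built in.

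The study asked about the balance of luminal, mesenchymal and progenitor cells. None of 7 compared luminal genes passed the fold and their median was 0.08. KRT8 stood at 341 against 314 CPM (0.12, 0.08 to 0.16) and KRT18 at 592 against 549 CPM (0.11, 0.08 to 0.14), while the luminal surface genes CLDN4 and CD24 stood at −0.26 and −0.21. None of 6 mesenchymal genes passed the fold either, and their median was −0.11, with 5 genes below 0. VIM, the intermediate filament of mesenchymal cells, stood at −0.09 (−0.14 to −0.05), and FN1, below the level limit, at 0.03 (−0.15 to 0.20). E-cadherin (CDH1) stood at 108 against 105 CPM (0.04, −0.03 to 0.11). Of luminal progenitor genes, PSCA stood at 24.7 against 18.05 CPM (0.45), a ratio that was 0.22 without its richest cell. KLK10 and KLK5, kallikrein proteases at 42 and 17 UMIs in the class, were at −0.98 (−1.48 to −0.51) and −0.95 (−1.77 to −0.23). TLR4 and its ligand BGN had 3 UMIs each, too few for a difference to be seen at this depth, and VEGFA stood at −0.01 (−0.23 to 0.20).

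Genes listed as ERG targets and other ETS factors lay near 0. Of 31 genes listed as ERG targets 8 were abundant enough to compare, none passed the fold, and the median was −0.02, with NDRG1, a stress and differentiation gene, lowest (−0.19) and EZH2, the polycomb methyltransferase, highest (0.17). Of 22 ETS factors 5 were compared, none passed the fold, and ETS2 stood at −0.14 and ELF2 at 0.23. The letters CGGAAG, an extended ETS core, were looked for on both strands of RefSeq promoter windows in GRCh38.p14, from 250 bases before to 50 after each annotated start. They were in 23 of 88 windows of the higher genes (26.1%; 44 of 62 genes matched), in 2 of 30 windows of the lower genes (6.67%; 20 of 31 matched), in 33.0% of windows of all compared genes and in 19.5% of all windows in the set. A match is only a match of letters. The windows of HSPB1 (chr7:76302423-76302722, plus strand) and GBE1 (chr3:81761596-81761895, minus strand) are shown, with the match in capitals. HSPB1 had the lowest ratio of the named lower genes, while GBE1 came after MAP2 and TACC2 among the higher ones. This pair does not stand for its groups, whose windows both held the match less often than those of all compared genes.
HSPB1: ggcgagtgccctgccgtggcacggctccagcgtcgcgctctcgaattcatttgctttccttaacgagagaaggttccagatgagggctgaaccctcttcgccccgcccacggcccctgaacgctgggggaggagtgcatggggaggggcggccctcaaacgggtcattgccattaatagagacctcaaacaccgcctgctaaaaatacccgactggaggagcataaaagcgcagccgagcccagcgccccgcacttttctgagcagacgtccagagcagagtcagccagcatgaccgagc
GBE1: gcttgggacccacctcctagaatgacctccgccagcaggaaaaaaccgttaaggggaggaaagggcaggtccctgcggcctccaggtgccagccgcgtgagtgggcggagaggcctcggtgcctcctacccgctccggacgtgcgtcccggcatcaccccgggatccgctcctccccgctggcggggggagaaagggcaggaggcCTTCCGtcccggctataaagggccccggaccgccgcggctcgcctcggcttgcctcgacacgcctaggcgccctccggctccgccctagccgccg
HSPB1 had no match and GBE1 had 1, on the opposite strand.

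The AKT and PI3K list and both proliferation lists had medians above the 0.05 of all genes. All 14 compared genes of the AKT and PI3K list were above 0, with a median of 0.19. AKT1, the isoform supplied by the second vector, stood at 19.1 against 19.3 CPM (−0.02, −0.18 to 0.15), just under the level limit. Active AKT keeps FOXO factors out of the nucleus. Of 5 FOXO target genes compared none passed the fold, the median was 0.17, and IRS2, an insulin receptor substrate, was highest at 0.26. All 18 compared S phase genes were above 0, with a median of 0.11, and 19 of 22 G2/M genes, with a median of 0.14, but none of them passed the fold. MKI67, a proliferation marker, stood at 228 against 193 CPM (0.24, 0.19 to 0.29). Cells above the 0.75 quantile of their library in summed level of the G2/M list were put in a G2/M class. Other cells above the same quantile for the S phase list were put in an S class. The cut thus sets the size of these classes, which are not measured fractions of cycling cells. Of ERG-detected cells 31.5% were in the G2/M class against 28.3% of matched cells, and 24.7% against 20.9% in the S class. Matching on this class as well left 43 of the 62 higher and 27 of the 31 lower genes past the fold.

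Some lists had 1 gene lower past the fold, beside 0.477% of all compared genes, and none higher. These were IFI27 of 10 interferon genes and CA9, a carbonic anhydrase induced by hypoxia (−0.35), of 10 hypoxia and glycolysis genes. The others were SAA2 of 9 NF-kB genes and IGFL1 of 5 IGF genes, the latter with 14.8% of its UMIs from 1 cell. A single gene does not describe its list. None of the compared genes passed the fold on the lists of stemness (6 compared), TLR4 pathway (2), ERK output (8), immediate early genes (13), mTORC1 and SREBP targets (16), ATF4 targets (10) and matrix (11), nor among the 13 mitochondrially encoded genes (median 0.09). No gene of the VEGF list was abundant enough to compare. Markers of other cell types were low in both classes, DCN excepted. The endothelial list, which bears on ERG's normal site of expression, summed to 23.8 against 25.6 CPM with 4 of 15 members at 0 and its defining genes PECAM1, CDH5 and VWF at 2, 4 and 1 UMIs in ERG-detected cells. Immune markers summed to 14.6 against 14.5 CPM, with 5 of 10 at 0 and PTPRC among them. Neuroendocrine markers summed to 7.35 against 6.38 CPM, with 5 of 9 at 0. Of 10 fibroblast markers 4 were at 0, and DCN, a matrix proteoglycan, alone was abundant enough to compare: it stood at 25.2 against 21.7 CPM (0.22, 0.07 to 0.36) and was seen in 225 of 886 cells.

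The higher genes tended to be long. Their median annotated span was 186122 bp, against 37382 bp over all compared genes and 9421 bp for the lower genes. The chromosomal ERG gene is itself long (38380027 to 38661780 on chromosome 21). The ERG UMIs by which the cells were chosen do not separate it from vector-borne ERG. Whether choosing cells by ERG UMIs favours long genes was not tested. Divided by span into 5 groups of equal size, the compared genes had median log2 ratios of −0.02, 0.02, 0.06, 0.10 and 0.13 from the shortest to the longest, and 41 of the 62 higher genes and none of the 31 lower genes were in the longest group. Across the 6504 genes, which share cells and are not independent, Spearman's rho of ratio and span was 0.51. In RWPE1, for cells with 1 or more ERG UMIs, it was 0.37 over 5929 genes.

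Measures of RNA content moved with this pattern. At matched depth the nuclear RNA MALAT1 took up 89.8 UMIs per 10000 in ERG-detected cells against 71.9 (higher in 17 of 19 bins), detected genes numbered 5123 against 4998 (18 of 19 bins), and the mitochondrial share was 2.87% against 2.82%. Thinned to 5000 UMIs, the cells still had 2239.6 against 2181 detected genes. Matching on MALAT1 share as well left 18 higher genes, 17 of them among the 62, and 30 lower genes, 27 of them among the 31. Matching on detected genes left 9 higher and 32 lower, of which 7 and 24 were among the genes named above by the fold. HSPB1, KRT14, KRT17 and FGFBP1 kept ratios of −0.56, −0.52, −0.39 and −0.47 in the first and −0.52, −0.51, −0.36 and −0.46 in the second, and TACC2 kept 0.41 and 0.37. These 4 lower genes and TACC2, all among the largest ratios, thus changed little under either matching. Most of the 62 higher genes fell inside the fold. Of the 24 genes named by size, 24 and 23 kept their direction in the first and the second, and 14 and 12 stayed past the fold. The number of detected genes is itself a readout of the same cells.

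**Figure D5:**
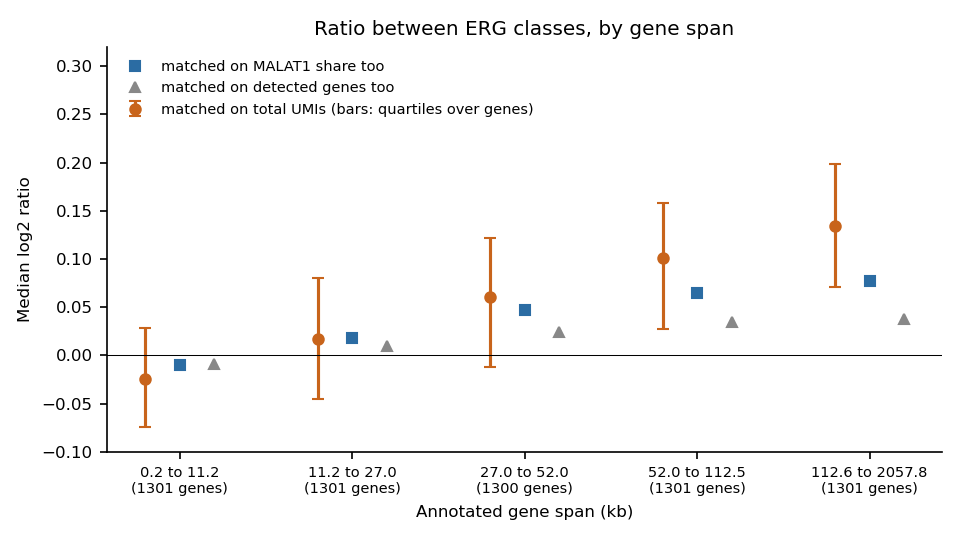
Median log2 ratio of ERG-detected over matched cells in 5 groups of genes by annotated span in kb, for matching on total UMIs (circles, bars are quartiles over genes), on MALAT1 share too (squares) and on detected genes too (triangles). The medians run from −0.02 to 0.13 with span under the first matching and stay closer to 0 under the others.

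RWPE1 cells with an ERG UMI differed in direction for several of these genes. There, 231 cells had 1 or more ERG UMIs and 5073880 UMIs in all, and the smaller sum gives wider intervals. Of 7064 genes 503 (7.12%) were higher and 291 (4.12%) lower past the same fold, and in the 37 cells with 2 or more ERG UMIs 1548 of 7268 (21.3%) were higher and 1122 (15.4%) lower. KRT14 stood at 3269 against 1423 CPM (1.20, 1.18 to 1.22) and HSPB1 at 789.5 against 375 CPM (1.07, 1.03 to 1.12) in RWPE1 cells with an ERG UMI, the opposite of RWPE-ERG-mAKT. KRT8 stood at −0.70 (−0.78 to −0.63) and VIM at −0.70. KRT17 was at 0.01 (−0.02 to 0.04) and TACC2 at 0.22 (0.05 to 0.39). Of 22 G2/M genes 21 were lower past the fold. Of the cells with 1 ERG UMI 13.9% were in the G2/M class against 27.4% of matched cells. In the S class the shares were 36.6% against 23.1%. The cuts of both classes were set within RWPE1. The part of free or chromosomal ERG RNA in these readings was not tested.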

How the data were processed

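Single-cell libraries were made by the authors with the Chromium 3' kit v3.1 from 10000 input cells each, and UMIs were counted with Cell Ranger 7.1.0 on hg38, according to the methods and the submitters' notes on processing. The deposited matrices hold raw UMI counts per gene and barcode, without normalization. Whether intronic reads were counted is not given in the sources used here. Such reads would add counts to long genes and nuclear RNA. The study's own filter kept cells with fewer genes than the limit used here.

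Counts were summed over the cells of a class in bins of 2000 total UMIs, the bins of cells without an ERG UMI were weighted to the summed UMIs of the ERG-detected cells, and levels were given in CPM with ERG left out. Ratios carry intervals for Poisson counts and shares carry Clopper-Pearson intervals, both at 95%. With 1 library per condition no test was made. Genes with 20 CPM or more in either class were compared, and a log2 ratio of at least 0.32 either way counted as past the fold. The calculation was tested on simulated data. Cells were thinned without replacement (seed 1). No doublet caller was run. The deepest 5% of cells were left out as an alternative.

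The members and the 30 gene lists were chosen with earlier results of these data known. Named are the 12 genes with the largest ratio each way at 50 CPM or more whose direction held with 1 or more ERG UMIs, per-cell scaling, bins of 1000 UMIs, and matching on cell cycle class and on mitochondrial share (22 genes qualified as higher and 14 as lower), up to 4 members of each list, and genes the study's text names. Gene spans come from GENCODE 29 on GRCh38, which holds 34616 of 36601 identifiers. The software was pandas 2.3.3, scipy 1.17.1 and numpy 2.4.6 under Python 3.11.15, with plots by matplotlib 3.10.9. Some genes are not reported here.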

Additional observations from a re-analysis of the deposited data

Results flagged for a closer look

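Of the 24 genes with the largest ratios in RWPE-ERG-mAKT, 5 lay past a log2 ratio of 0.32 in the opposite direction in RWPE1. The RWPE1 cells had 1 or more ERG UMIs, against 2 or more in RWPE-ERG-mAKT. Only genes with 20 CPM or more in RWPE1 were counted. SPIDR (0.36), STK39 (0.41) and LGALS1 (−0.35) lay past the fold in the same direction in RWPE1. Of all genes compared in RWPE1, 7.12% were higher and 4.12% lower past the fold. Below that level IGFL1 stood at −0.38 and 1.35, with 68.4% of its RWPE1 UMIs from 1 cell, and GALNT13 at 0.37 and −0.40. The difference between the libraries was not tested, since each has 1 library. MAP2 stood at 0.46 in RWPE-ERG-mAKT and −0.47 in RWPE1, where 14.04% of its UMIs came from 1 cell. HSPB1 stood at −0.56 and 1.07, FABP5 at −0.52 and 0.98, and KRT14 at −0.49 and 1.20. S100A8 stood at −0.42 and 2.70, the latter resting on 15 of 231 cells with 36.1% of its UMIs in 1 of them. Without the cell richest in each gene, the RWPE1 ratios were −0.68 for MAP2, 1.04 for HSPB1, 0.86 for FABP5, 1.18 for KRT14 and 2.06 for S100A8. Of the 231 RWPE1 cells 194 had exactly 1 ERG UMI. In that class the RWPE-ERG-mAKT ratios were smaller. They were 0.07 (−0.01 to 0.14) for MAP2, −0.20 for HSPB1, −0.18 for FABP5, −0.14 for KRT14 and −0.31 for S100A8.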

How the results depend on the processing

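The counts of genes past the fold, 62 higher and 31 lower, depended most on the ERG class: 1 and 6 for cells with 1 or more ERG UMIs, 0 and 6 for cells with exactly 1, and 421 and 141 for cells with 3 or more, where fewer cells give wider counting error. Higher genes numbered 39 with matching on mitochondrial share, 95 without the deepest 5% of cells and 94 with per-cell scaling, and lower genes 64 with no matching. Both counts changed with median-of-ratios scaling (21 and 53), with cells thinned to 5000 UMIs (297 and 58), with genes of 10 CPM or more (168 and 56) or 50 CPM or more (22 and 14), and at 1.5-fold (0 and 2). Of alternatives added after seeing the data, matching on MALAT1 share left 18 higher genes and matching on detected genes left 9. In RWPE1, 1548 genes were higher and 1122 lower with 2 or more ERG UMIs, against 503 and 291 with 1 or more. S100A8 reversed to 0.17 with no matching, 0.49 without the deepest 5% of cells and 0.34 with matching on detected genes, and PSCA to −0.0091 in cells with exactly 1 ERG UMI. Over all 115 named genes, most inside the fold, the direction was as reported for 99 with exactly 1 ERG UMI, 105 with no matching and 106 with matching on detected genes. Those that turned include NDRG1 (0.09), VIM (0.04) and KRT18 (−0.0048) with exactly 1 ERG UMI. The cause of these changes was not tested. The other 23 of the 24 genes with the largest ratios had the same direction under every alternative run for them. This was partly built in, since the 24 genes were chosen for keeping their direction under some of these alternatives. The alternatives used in that choice were 1 or more ERG UMIs, per-cell scaling, narrower depth bins, and matching on cell cycle class and on mitochondrial share. No paired analysis was possible because each condition has 1 library. Depth limits ERG itself most, since most cells had no ERG UMI.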

Other observations

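The genes given here lie outside the rule for named genes, THBS1 excepted, and were chosen after their values were seen, so they stand for no group. C15orf48, a mitochondrial protein of inflamed tissue, had the lowest ratio of all compared genes at −0.97. CALML3, a calmodulin-like protein of keratinocytes, stood at −0.59 and was lower in 18 of 19 depth bins. The squamous serpin SERPINB13 stood at −0.43, AKR1C1, an NRF2-driven reductase, at −0.46 and CSTA, a protease inhibitor of the cornified envelope, at −0.33. CEP152, a centriole protein, stood at 0.37 and was higher in 19 of 19 bins, and POLQ, a DNA repair polymerase, at 0.38 and in 18 bins. The S phase and G2/M lists had no gene past the fold. THBS1, a matrix protein, lay just inside the fold at 133 against 106 CPM (0.32).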
